A study of Mus musculus with 2 samples.

Results

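The glutathione transferases and antioxidant defence genes described here are 42 named genes, chosen by symbol, that cover the glutathione transferase classes, glutathione synthesis and recycling, the glutathione peroxidases, the thioredoxin and peroxiredoxin system, the superoxide dismutases, and the transcription factor NRF2 with its inhibitor KEAP1 and well-known target genes. Of the 42, 38 had a probe set annotated to them alone, out of 22180 such genes on the array, and the brightest such probe set stands for each gene. Gstm5, Gstz1 and Prdx1 had only probe sets that carry several gene symbols, and Prdx6 had none in the annotation used. These 4 thus have no value in the comparison. The genes were chosen with earlier results of these arrays in view, so their differences are a description and not a test.

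RNA came from M210B4, a line established from mouse bone marrow stroma, kept for 24 h in RPMI medium with 2% serum. The treated culture received an antibody that activates CD84 (clone 152-1D5), a homophilic SLAM family receptor, and the control culture an IgG1 isotype antibody. Each condition was measured once, on 1 Affymetrix Mouse Gene 2.0 ST array, so no value has a replicate error, a test or a p-value. Every difference below is the log2 value after anti-CD84 minus the log2 value after IgG1. A gene was called detected where it lay, on at least 1 array, above 4.84, the 95th percentile of 1394 olfactory and vomeronasal receptor genes whose use in stroma is not anticipated.

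Glutathione is a small thiol that cells make from glutamate, cysteine and glycine. Glutathione transferases couple it to reactive electrophiles, glutathione peroxidases spend it to reduce peroxides, and glutathione reductase restores it with NADPH. Peroxiredoxins and thioredoxin form a parallel route. Many of these genes are targets of NRF2, which KEAP1 marks for degradation until oxidants or electrophiles modify KEAP1, and which binds the antioxidant response element as a dimer with a small MAF protein.

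The genes of this defence system were mostly at similar values on both arrays, with the probe sets read for Gstp2, Mgst3 and Nqo1 higher after anti-CD84. Another probe set that carries the Gstp2 symbol differed by only 0.20, and whether Nqo1 passes 1.5-fold depends on the scaling, as given below. Of the 38 measured genes 32 were detected, and the value after anti-CD84 exceeded that after IgG1 by 1.5-fold or more in 3 of them, was lower by as much in 0, and lay inside these limits in 29. Over all 13284 detected genes on the array the upper limit was passed by 10.7% and the lower limit by 6.4%. Gstp2 was the only listed gene with a value 2-fold or more higher, a size passed by 1.98% of all detected genes. By mean level, the upper 1.5-fold limit was passed by 0 of 10 listed genes under 7, where 13.4% of all genes passed it, by 2 of 10 from 7 to 9, where 9.82% did, and by 1 of 12 over 9, where 4.76% did. The median difference of the 32 genes was 0.10 on the log2 scale, beside 0.09 for all detected genes, and 19 of the 32 differed by less than 0.25 in either direction. Because the genes were chosen with this contrast known, nothing is read from the count. In RNA from a whole culture, a change in the share of cells that use a gene and a change in RNA per cell cannot be told apart.

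**Figure D1:**
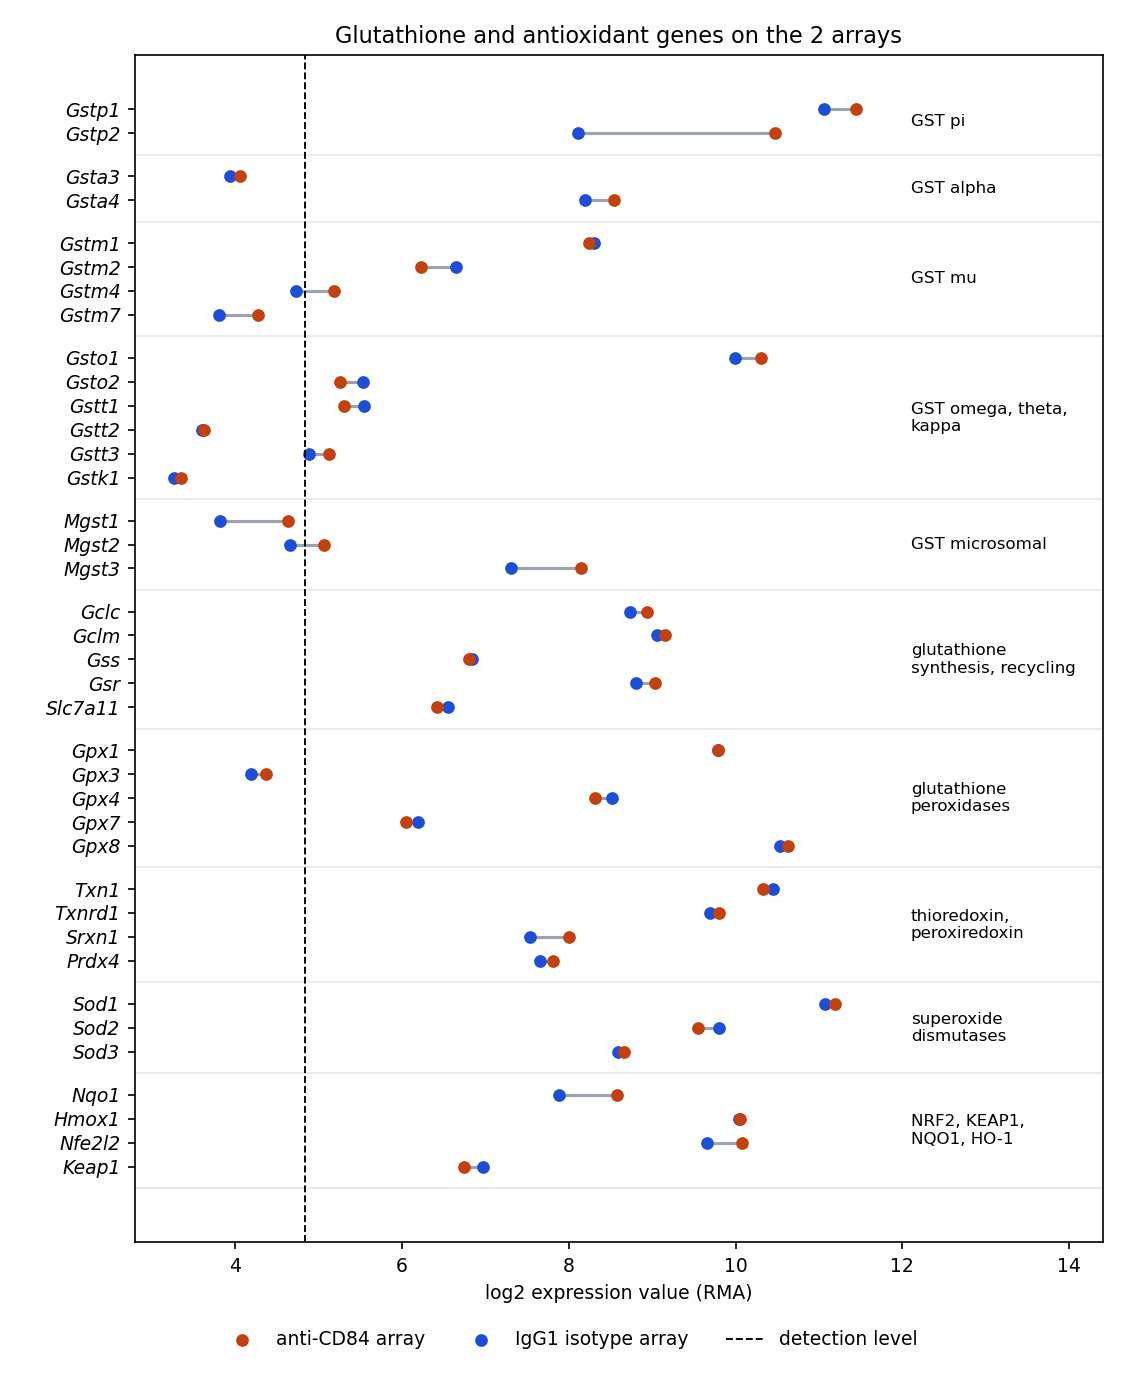
Log2 expression values (horizontal axis) of the 38 measured glutathione and antioxidant genes on the anti-CD84 array (orange) and the IgG1 isotype array (blue), grouped by role, with the detection level of 4.84 as a dashed line. Gstp2 has by far the longest line between its 2 points, Mgst3 and Nqo1 are also apart by more than 1.5-fold, and 6 genes lie left of the dashed line on both arrays.

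The pi class holds the widest contrast, between the probe sets read for Gstp1 and Gstp2. It rests on 1 Gstp2 probe set: with a probe set shared by both genes it was -0.18 in place of 1.98. The Gstp1 and Gstp2 genes lie next to each other on chromosome 19. The 250 bases before the RefSeq start of each gene (GRCm38.p6, both on the minus strand) are shown because they display how alike the paralogues are. Capitals mark matches to TGACNNNGC or TGAGNNNGC on either strand, a pair of spellings of the antioxidant response element core that cannot match at the same position on the same strand.
Gstp1, chr19:4037913-4038162: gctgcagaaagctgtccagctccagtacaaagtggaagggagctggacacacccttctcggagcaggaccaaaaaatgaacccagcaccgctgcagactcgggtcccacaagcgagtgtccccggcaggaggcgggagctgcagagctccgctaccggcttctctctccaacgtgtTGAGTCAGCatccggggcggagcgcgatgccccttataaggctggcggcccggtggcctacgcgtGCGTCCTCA
Gstp2, chr19:4042222-4042471: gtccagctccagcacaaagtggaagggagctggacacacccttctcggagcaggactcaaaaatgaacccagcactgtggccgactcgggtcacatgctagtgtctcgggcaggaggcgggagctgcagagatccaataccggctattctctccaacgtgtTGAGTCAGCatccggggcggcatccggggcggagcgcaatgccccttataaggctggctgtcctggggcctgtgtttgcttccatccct
In a global alignment 208 of 265 columns held the same base, an identity of 78.5%. Both windows hold TGAGTCAGC on the coding strand, ending 66 bases before the start in Gstp1 and 81 in Gstp2. Gstp1 has a further match, TGAGGACGC, on the opposite strand directly before its start. The window of Gstp3, the next gene of the class, had 50.7% identity with that of Gstp1 and 51.9% with that of Gstp2.

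Gstp1, a cytosolic transferase with a broad range of electrophile substrates, read 11.44 after anti-CD84 and 11.06 after IgG1. That is a difference of 0.39, or 1.31-fold. Of the 2208 detected genes with a mean level over 9, 336 had a difference at least as large, Gstp1 itself included. The probe set annotated to Gstp2 alone read 10.48 after anti-CD84 and 8.11 after IgG1, a difference of 2.37 or 5.16-fold. No other of the 11761 genes above the detection level on both arrays had so large a difference upward. Among genes detected on 1 array only, Mill2 had a larger one, of 2.75 (6.47 and an undetected 3.72). A separate probe set, annotated to both Gstp1 and Gstp2, read 10.36 and 10.15, a difference of 0.20 or 1.15-fold. Thus 1 of the 3 probe sets that carry these symbols was far higher after anti-CD84, while the other two differed by less than 1.5-fold. The difference of Gstp2 exceeded that of Gstp1 by 1.98 with the Gstp2 probe set, and was below it by 0.18 (-0.18) with the shared probe set, which was looked up after the values were seen. Gstp3 read 5.12 with the anti-CD84 antibody and 3.97 with IgG1. The lower value is under the detection level, and counted from that level Gstp3 was at least 1.21-fold higher. It was also looked up after its values were seen.

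**Figure D2:**
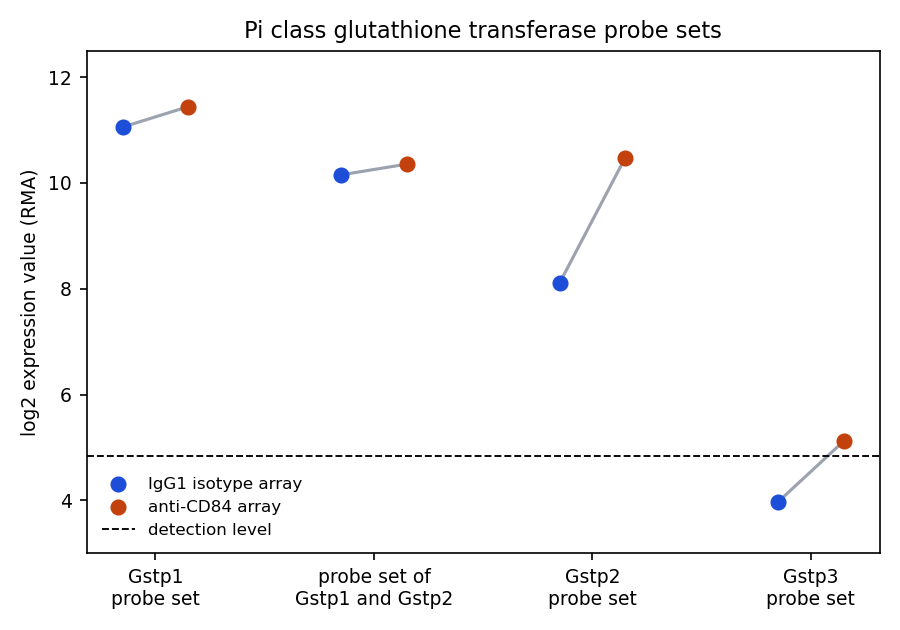
Log2 expression values (vertical axis) of the 4 probe sets annotated to pi class genes, with the IgG1 isotype array in blue, the anti-CD84 array in orange and the detection level of 4.84 dashed. The line of the Gstp2 probe set climbs from 8.11 to 10.48, while those of Gstp1 and of the probe set shared by Gstp1 and Gstp2 climb by 0.39 and 0.20.

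The Gstp2 probe set was set apart by its number as well. Probe set numbers on this array follow the chromosomes: of the single-symbol probe sets whose gene has a RefSeq chromosome, 96.3% lay between neighbours in number that belong to the chromosome of their own gene. The Gstp2 probe set lay between Mir3473c and Rcor3, in a run of chromosome 1 genes, although RefSeq places Gstp2 on chromosome 19. It was 1 of 119 probe sets (0.51%) that differed in this way from a uniform run of neighbours. The Gstp1 probe set lay between Ndufv1 and Gstp3, all on chromosome 19. Among the other listed genes with a uniform run of neighbours, none was apart from it. The number following that of the Gstp2 probe set was 2 higher, beside steps of 8 for Gstp1 and 9 for the shared probe set. Of the 119 displaced probe sets 52.9% had a step of 2 or less, against 9.40% of those placed with their neighbours. Of the 102 displaced probe sets detected on both arrays, 3 differed by 2-fold or more in either direction (2.94%), against 1.95% of those placed with their neighbours. The Gstp2 probe set is itself 1 of these 3, so nothing is read from the gap between the shares. Which transcripts the Gstp2 probe set reads, and whether it shares signal with its paralogue, was not tested.

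Outside the pi class, the microsomal transferase Mgst3 was the transferase furthest apart. The microsomal enzymes are membrane proteins of another fold that conjugate glutathione and reduce lipid peroxides. Mgst3 read 8.15 after anti-CD84 and 7.30 after IgG1, a 1.80-fold higher value. Mgst2 read 5.07 and 4.66, above the detection level after anti-CD84 only, and so was at least 1.17-fold higher. Mgst1 did not reach that level, with 4.63 and 3.82. Mgst3 was thus the only microsomal gene detected on both arrays.

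None of the listed genes of the cytosolic alpha, mu, omega and theta classes was 1.5-fold apart. Gsta4, which detoxifies the lipid peroxidation product 4-hydroxynonenal, read 8.54 and 8.20, or 1.27-fold higher after anti-CD84. The mu class had differences in both directions. Gstm1 read 8.25 and 8.31, a difference of -0.06, and Gstm2 read 6.23 and 6.65, 1.33-fold lower after anti-CD84 and the lowest difference of the 32 genes. Gstm4 read 5.18 after anti-CD84 and 4.74 after IgG1, at least 1.27-fold higher. The mu genes lie side by side and are close in sequence, so signal may be split among them. Gsto1, which reduces dehydroascorbate, read 10.30 and 9.997, a 1.24-fold higher value. Its neighbour Gsto2 read 5.26 and 5.54, Gstt1 5.30 and 5.54, and Gstt3 5.12 and 4.88. These 3 lay within 1.21-fold and not far above the detection level. Gsta3, Gstm7, Gstt2 and the mitochondrial Gstk1 were not detected, with values from 3.27 to 4.28.

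Genes that make and recycle glutathione were close to equal on the arrays, and all 5 differed by less than 0.25. Gclc, the catalytic subunit of the rate-limiting ligase, read 8.94 and 8.74, and its modifier subunit Gclm 9.16 and 9.06. Gss, which adds glycine, read 6.803 and 6.84. Gsr, the reductase, read 9.03 and 8.81, the largest difference of the group at 0.22. Slc7a11, the cystine importer that supplies cysteine, read 6.42 and 6.55, and a further, undetected probe set of it read 2.87 and 3.34. The median difference of the group was 0.09.

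Glutathione peroxidases differed by no more than 0.20 in size. Gpx1, the main cytosolic enzyme, read 9.79 on both arrays, with a difference of 0.00051. Gpx4, which reduces lipid hydroperoxides and restrains ferroptosis, read 8.32 after anti-CD84 and 8.52 after IgG1. The endoplasmic reticulum members Gpx7 and Gpx8 read 6.05 against 6.19 and 10.63 against 10.54. Gpx3, the secreted plasma form, was not detected, at 4.37 and 4.19.

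Of the 4 measured listed genes of the thioredoxin and peroxiredoxin system, Srxn1 had the largest difference. Genes of this system that stand in the other pathway lists are not in that ranking. Srxn1, which repairs over-oxidised peroxiredoxins, read 7.998 after anti-CD84 and 7.54 after IgG1, or 1.38-fold higher. Txn1, the cytosolic thioredoxin, read 10.32 and 10.45, its reductase Txnrd1 9.80 and 9.69, and Prdx4, the peroxiredoxin of the endoplasmic reticulum, 7.82 and 7.66. Those 3 were within 1.12-fold. The superoxide dismutases were likewise near equal: cytosolic Sod1 read 11.19 and 11.08, extracellular Sod3 8.66 and 8.59, and mitochondrial Sod2 9.55 and 9.80, which is 1.19-fold lower after anti-CD84.

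Of NRF2, KEAP1 and a pair of classical NRF2 targets, only Nqo1 passed 1.5-fold. Of all genes detected on both arrays, 9.57% were higher by as much and 3.89% lower. Nfe2l2, which encodes NRF2, read 10.08 and 9.66, a difference of 0.43 that lay within 1.5-fold. Keap1 read 6.75 and 6.97, 1.17-fold lower, but its other probe set, at 5.07 and 4.92, differed in the opposite direction by 0.15. Nqo1, a quinone reductase widely used as a readout of NRF2, read 8.57 and 7.89, 1.61-fold higher. Once a loess curve fitted to difference against level was subtracted, Nqo1 was at 0.56 and so below the 1.5-fold limit. Hmox1, the inducible haem oxygenase, read 10.05 and 10.04.

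**Figure D3:**
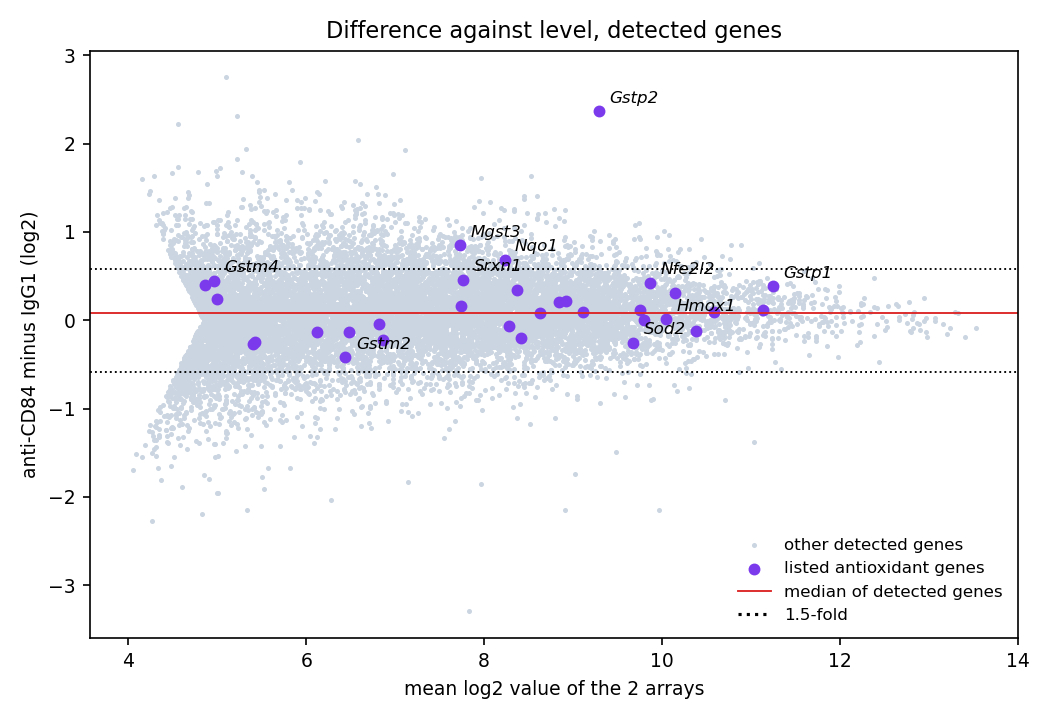
Difference between the arrays (vertical axis, log2, anti-CD84 minus IgG1) against the mean log2 value of both arrays (horizontal axis) for the 13284 detected genes in grey and the 32 detected antioxidant genes in purple, with the median of detected genes in red and 1.5-fold as dotted lines. Gstp2 lies highest of the purple points at 2.37, Mgst3 and Nqo1 lie above the upper dotted line, and the other 29 lie between the dotted lines.

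The promoter windows were searched for the same element in all listed genes. RefSeq windows were found for 35 of the 42 genes, and 15 of the 35 held either spelling in the 250 bases before a start, beside 25.7% of all 27025 genes with a window. Genes with several annotated starts have more than 1 window and so more chances of a match. The core of the Gstp genes, TGAGTCAGC, also stands before Srxn1, on the coding strand and 37 bases before its start, as shown here with the bases that flank it.
Srxn1, chr2:152105467-152105499, plus strand: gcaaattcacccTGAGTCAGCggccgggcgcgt
Gstp1, chr19:4037966-4037998, minus strand: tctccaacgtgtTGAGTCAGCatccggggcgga
Gstp2, chr19:4042290-4042322, minus strand: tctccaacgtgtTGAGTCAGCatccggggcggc
Among detected genes with a window, the 9 with a match had a median difference of 0.12 and a range from -0.24 to 2.37. The 18 without a match had a median of -0.02 and a range from -0.41 to 0.85, and they include Mgst3 and Nqo1. The 5 detected genes without a window had a median of 0.21, and the median of all detected genes was 0.09. The upper 1.5-fold limit was passed by 1 of the 9, 2 of the 18 and 0 of the 5, beside 10.7% of all detected genes. A match is a run of letters and not a measured binding site, and its absence says only that these letters are not in the window.

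Other genes of the pathway, in 6 lists of 139 genes, gave 98 genes detected on both arrays. Of these, 13 were higher by 1.5-fold or more and 0 lower, where 9.57% and 3.89% of the 11761 genes measured in this way were. After subtraction of the median over all detected genes, the counts were 9 higher and 1 lower, beside 6.65% and 5.59% of the 11761. A further 8 genes were detected on 1 array only. Their folds, counted from the detection level, do not establish a 1.5-fold difference. They are left out of the counts but kept in the list medians. List medians near 0 have no settled sign, since rescaling the arrays turns some of them negative.

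In peroxide and thiol defence, 5 of 25 detected genes were 1.5-fold higher and 0 lower (median 0.00495), beside the same 9.57% and 3.89%. Cat, the peroxisomal catalase, read 10.21 and 9.27, a 1.93-fold higher value. Sesn1 and Sesn3, stress-inducible sestrins, were 1.78-fold and 1.56-fold higher, the methionine sulfoxide reductase Msrb3 1.71-fold and the paraoxonase Pon3 1.69-fold. Under each of the 3 rescalings the counts were 4 higher and 1 lower (genes detected on both arrays: 6.41% to 6.65% and 5.59%). Sesn3 no longer reached 1.5-fold there (0.55 centred), and Msrb2, a mitochondrial relative of Msrb3 named after its values were seen, passed the lower limit (-0.57 as deposited and -0.65 centred).

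Among further NRF2 targets, 4 of 22 detected genes were 1.5-fold higher and 0 lower (median 0.17), beside the same 9.57% and 3.89%. Aox1, an aldehyde oxidase, read 7.63 and 6.43, or 2.29-fold higher. Slc48a1, a haem transporter, was 1.75-fold higher, the epoxide hydrolase Ephx1 1.60-fold and the quinone reductase Nqo2 1.52-fold. Rescaling left 3 higher with centring or quantile normalization, without Nqo2, and 2 with loess, where Ephx1 (0.57) was also lost. Of all genes detected on both arrays, 6.41% to 6.65% were higher under these rescalings. Of 14 NRF2 regulators detected on both arrays 2 were higher and 0 lower, again beside 9.57% and 3.89%. The 2 were the KEAP1-binding proteins Dpp3 (1.55-fold) and Pgam5 (1.59-fold), and the median of all 15 detected was 0.02. Neither call held under any of the 3 rescalings, which left 0. Sqstm1 is in both NRF2 lists.

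In glutathione turnover 1 of 18 genes detected on both arrays was 1.5-fold higher and 0 lower, where 9.57% and 3.89% of all such genes were. That gene, the glutaredoxin Glrx, read 8.03 and 7.09 and was 1.92-fold higher (median of all 21 detected 0.12). Among enzymes with a glutathione transferase fold or a related eicosanoid function, 6 were detected on both arrays. Of these Ptges alone was 1.5-fold apart (median of all 9 detected 0.07), beside the same 9.57% higher and 3.89% lower. Ptges, the microsomal prostaglandin E synthase and a relative of Mgst1, read 7.29 and 5.96, a 2.52-fold higher value. Of 14 oxidant producers detected on both arrays, none was 1.5-fold apart in either direction (median of all 15 detected 0.14). The shares of all genes are again 9.57% and 3.89%.

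**Figure D4:**
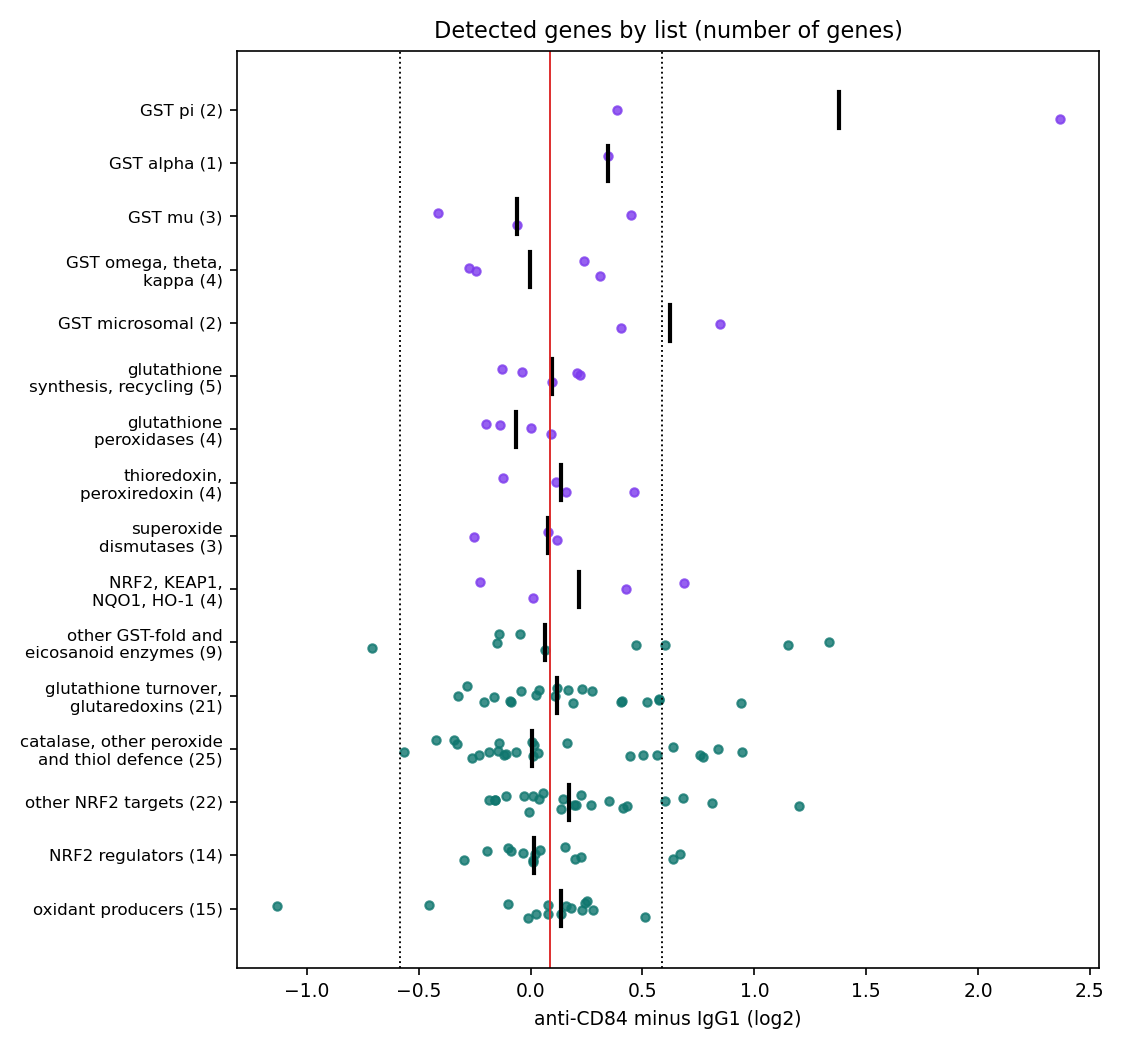
Difference between the arrays (horizontal axis, log2, anti-CD84 minus IgG1) of each detected gene, by role for the listed antioxidant genes (purple) and by list for other pathway genes (green), with the list median as a black bar, the median of all detected genes in red and 1.5-fold as dotted lines. Numbers in brackets count the genes drawn, those detected on 1 array included, and Sqstm1 is drawn once, with the NRF2 targets. Most genes lie between the dotted lines, and Gstp2 at 2.37 is far to the right.

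For scale, the standard deviation of the difference over all detected genes was 0.44, narrowing from 0.52 at mean levels under 7 to 0.37 from 7 to 9 and 0.30 over 9. Cd84 was not detected, at 4.15 and 3.82. Of the defining stromal genes 9 of 10 were detected, against 2 of 9 measured haematopoietic and 3 of 5 endothelial markers. The haematopoietic pair, Csf1r (4.86 and 4.14) and Spi1 (4.88 and 5.02), lay next to the detection level, and Ptprc (3.90 and 3.86) was below it. The endothelial markers Cdh5 (4.61 and 5.56) and Pecam1 (4.32 and 4.99) were above it after IgG1 only, and Emcn read 5.19 on both. Of the 9 detected stromal markers 8 had a difference above 0 (median 0.45), as did 59.1% of all detected genes (median 0.09). Past 1.5-fold were 3 of the 9, beside 9.57% of all genes detected on both arrays. These were Cxcl12 at 2.15-fold, Pdgfra at 1.89-fold and Dcn at 1.69-fold higher. The detected stromal markers summed to 21880 linear units after anti-CD84 and 17941 after IgG1. The 2 detected haematopoietic markers summed to 58.5 and 50.0, and the detected endothelial markers to 81.0 and 115. With undetected markers included, the 9 haematopoietic markers summed to 175 after anti-CD84 and 189 after IgG1, so their direction is not settled. The 5 endothelial markers then summed to 116 and 157. The part of these in the antioxidant values was not tested.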

How the data were processed

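The authors deposited 1 log2 expression value per probe set and array for 41345 probe sets, for 2 arrays. The submitters' processing notes name RMA and Partek, without versions or settings. That the values are log2 was inferred from their span, 1.82 to 13.8, and the array medians, 4.87 and 4.88. Probe sets were named from GEO's platform annotation: 23521 have 1 symbol, 1814 have several and 16010 none. For 23328 of the 23521 the gene ID was found in a RefSeq table (GRCm38.p6), used for chromosomes only. Promoter windows are RefSeq's. No source used here gives the array's genome build.

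Differences, counts past 1.5-fold and 2-fold, and medians were computed with Python 3.11.15, numpy 2.4.6 and pandas 2.3.3, the loess alternative (span 0.4) with limma 3.58.1 in R 4.3.3, and alignments with Biopython 1.88 (match 1, mismatch -1). With 1 array per group there is no test, and the number of arrays limits the precision. "At least" folds count from the detection level and are not statistical bounds. All listed genes are named, and of the other pathway genes those past 1.5-fold and detected on both arrays. The genes and lists were chosen with earlier results of these data known. Alternatives were 3 rescalings, the mean of a gene's probe sets, and 4 treatments of low values. The counting code was run on simulated data with known shifts far larger than the simulated noise. That run checks the code and says nothing about the reliability of the calls.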

Additional observations from a re-analysis of the deposited data

Results flagged for a closer look

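A probe set that carries the symbols of both Gstz1, the zeta class transferase of tyrosine breakdown, and Pomt2 had a difference of 0.69 on the log2 scale (8.73 after anti-CD84 and 8.04 after IgG1, 1.61-fold). It drew attention because probe sets with several symbols were left out of the comparison and this one was higher than in the control culture by more than 1.5-fold. Only upward differences of that size were looked for, so it was picked for being high. The detected probe sets with several symbols of Gstm5 (-0.03) and Prdx1 (-0.20 for the brightest, 0.49 for another) lay within 1.5-fold. Which of the 2 genes it reads was not tested.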

How the results depend on the processing

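With 1 array per group no replicate could be left out, and no alternative gives an error. No paired analysis was possible because each group has 1 array. Across the 8 alternatives of scaling, probe sets and low values, the number of listed genes at least 1.5-fold higher ran from 2 to 4 around the reported 3, and the number lower stayed at 0. Loess correction removed Nqo1 (0.56), and dropping the level filter added the undetected Mgst1 (0.81). The median difference of 0.10 became -0.0055 with the loess curve removed, so its sign depends on the scaling. The sign of 5 of the 32 differences, Gclm, Gpx1, Gpx8, Hmox1 and Sod3, also changed with the scaling. The difference of Gstp2 was 2.25 with the loess curve removed, and with the probe set shared with Gstp1 in its place, chosen after seeing the data, it was 0.20. The contrast between Gstp2 and Gstp1 was then -0.18. Leaving the Gstp2 probe set out left 2 higher genes and a median of 0.09. Over all detected genes 1427 were 1.5-fold higher and 850 lower as deposited, and 1024 and 1128 with the difference centred.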

Other observations

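Of the 119 single-symbol probe sets whose number lies in a run of another chromosome's genes, 3 were detected on both arrays and 2-fold or more apart. Besides Gstp2 these were Timm8a1 (7.17 after anti-CD84 and 8.23 after IgG1) and 1810037I17Rik (6.62 and 7.66). They were named after their values were seen, and what these probe sets read was not tested.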
